A study of Mus musculus with 4 samples.

Results

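The enzymes described here add methyl groups to lysine 36 of histone H3 (H3K36) or take them off, and 10 of their genes were followed. They are the methyltransferase genes Nsd1, Nsd3, Setd2, Ash1l, Setmar and Smyd2 and the demethylase genes Kdm2b, Kdm4a, Kdm4b and Kdm4c. Members were chosen by gene symbol, with every probe that the platform annotation gives to one of them. Of the 10 genes, 8 had a probe, and these 8 of 16593 named genes were covered by 14 of 25697 probes. No probe here carries the symbol Nsd3 or Ash1l, so these members were not analysed here.

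Gene expression was measured in mouse embryonic fibroblasts of p19ARF-/- mice, so both groups lacked this product of the Cdkn2a locus, which protects p53 from MDM2. One group had been stably transduced with a control vector (n = 2 arrays) and the other with wild-type NSD2 (n = 2 arrays), and all 4 arrays were grown without further treatment. The promoter that drives NSD2, its species of origin, the number of clones and the age of the embryos are not given in the sources used here. The labels' entries for age and sex were not used, and that for age does not describe embryos. Nothing states that replicates came from separate cultures, so p-values measure the spread between these arrays, which may be technical.

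Methylation of H3K36 is laid down in steps by different enzymes. The NSD family and ASH1L make the monomethyl and dimethyl forms, while SETD2 travels with elongating RNA polymerase II and makes the trimethyl form in gene bodies. KDM2 enzymes remove the lower forms, and KDM4 enzymes act on the trimethyl form of H3K36 and of H3K9. The single contrast of the design adds one such writer, NSD2, and the question followed here is whether transcripts of the other writers and of the erasers differed. No probe was matched to Nsd2 (Whsc1) itself, so the labels could not be checked on the transduced gene.

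Brightness differed between arrays before normalization. The upper quartile of the signal was 357 on control vector 1 and 345 on NSD2 1, against 490 on control vector 2 and 491 on NSD2 2. The upper quartile thus went with the replicate number. The median signal was also higher on the array numbered 2 of each group, but NSD2 2 lay just below control vector 1. It was 173 and 204 on control vector 1 and 2 and 164 and 172 on NSD2 1 and 2. Of 12 fibroblast markers with a probe, 9 or 10 were above background on each array. Of 9 blood markers 1 to 3 were, although a tissue entry in the labels names blood. Their signals summed to 1500 and 1756 for control vector and to 1439 and 1530 for NSD2. Cd14 was above background on all 4 arrays, Cd3e on 2, and Lyz2 and Ptprc on 1 each. The probes of Hba-a1, Spi1, Itgam, Cd79a and Laptm5 were above background on no array. Of 7 epithelial markers 3 to 5 were above it on each array, with Krt8, Krt18 and Krt19 on all 4 and summed signals of 4421 and 6312 for control vector and 4020 and 6152 for NSD2. Of 8 endothelial markers 0 or 1 and of 5 muscle markers 1 or 2 were. The part of other cell types in the values below was not tested.

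Many of these genes were dim. A probe was called above background where its signal exceeded a threshold set on each array, 185 and 219 on control vector 1 and 2 and 178 and 182 on NSD2 1 and 2. On all 4 arrays 7 of the 14 member probes, of 6 genes, lay above it, 1 (Setmar) did so on 3 arrays, and 6 did so on none. Of the methyltransferase probes 5 of 6 were above background on at least 3 arrays, and of the demethylase probes 3 of 8. Both probes of Kdm2b were among the dim ones, so this gene's level could not be described. The precision of each value is limited by the number of arrays.

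**Figure D1:**
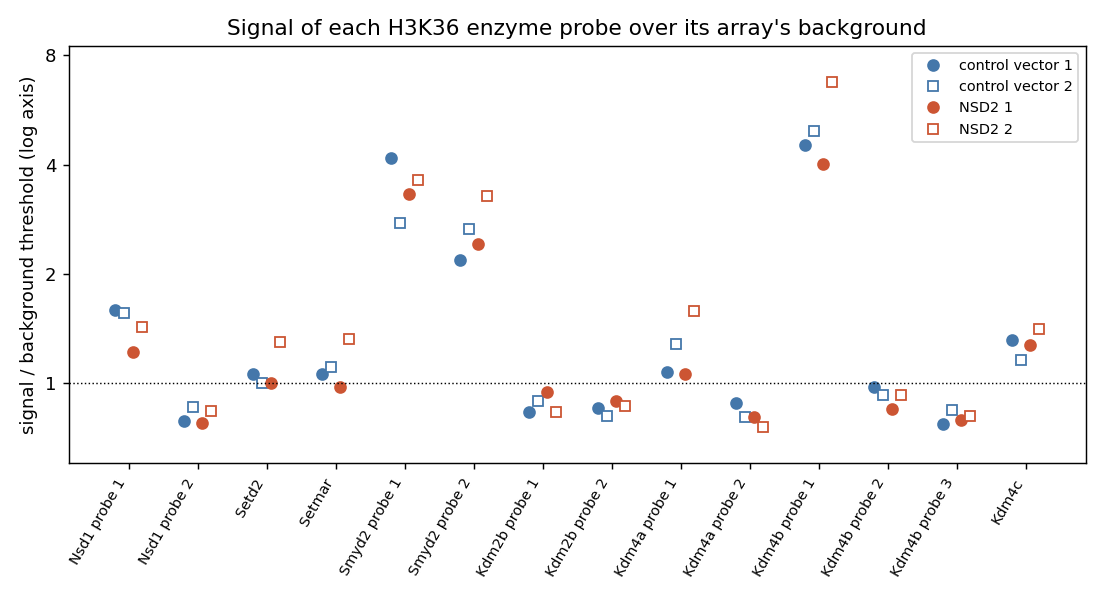
Signal of each of the 14 probes divided by the background threshold of its array (vertical log axis, no unit; the dotted line marks a ratio of 1), with circles for replicate 1, squares for replicate 2, blue for control vector and orange for NSD2. The leading Kdm4b probe lay 4.01 to 6.76 times above the threshold and the leading Smyd2 probe 2.76 to 4.17 times, while Setd2 reached 1.30 times at most and 6 probes stayed below the line on every array.

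None of the 8 genes rose or fell past the test with NSD2. In the limma fit over the whole table, 0 of 14 member probes had a Benjamini-Hochberg adjusted p under 0.05, against 0.0156% of all probes (4 of 25697). At an unadjusted limma p under 0.05 there was 1 member probe, that of Nsd1, beside 3.91% of all probes. Among the 8 probes above background on any array, 4 had higher and 4 lower means with NSD2, with a median log2 difference of 0.03, beside 0.00 over all probes. Values below are log2 intensities after background correction and quantile normalization, differences are NSD2 minus control vector with the standard error (SE) of the fit, and each group mean is given with its SD (n = 2). In bulk RNA, fewer cells that express a gene and less of its RNA per cell cannot be told apart.

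Nsd1 encodes the founding member of the NSD family, a writer of the same monomethyl and dimethyl marks as NSD2. Its brighter probe had signals of 294 and 342 in control cells and 217 and 260 with NSD2. These were only 1.22 to 1.59 times the background threshold of their arrays. After normalization its log2 intensity was 8.08 and 7.82 with the control vector and 7.52 and 7.48 with NSD2. Both NSD2 arrays lay below both control arrays, and the groups did not overlap. The means were 7.95 ± 0.18 and 7.50 ± 0.03, a log2 difference of -0.45 ± 0.21 (SE), or 1.37-fold lower, with a 95% interval from -0.89 to -0.01. The difference did not pass the test over all probes (limma unadjusted p = 0.044, adjusted p = 0.9996).

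A few further values place the Nsd1 difference. An exact test of 2 against 2 arrays has 3 splits, so its two-sided p is 0.333 here, the smallest it can give. Of the 9779 probes above background on all 4 arrays, 152 (1.55%) had a difference as low as that of Nsd1 or lower, and 344 (3.52%) had one at least as large in either direction. Non-overlapping groups with NSD2 lower were found in 15.6% of the same probes, so this feature alone is common. Nsd1 had the largest difference of the 14 member probes. The shares of 1.55% and 3.52% thus belong to a probe picked by its value and are not p-values. Leaving out control vector 1 gave -0.32, and leaving out control vector 2 gave -0.58, the lowest value without 1 array. The other Nsd1 probe was above background on no array and differed by -0.02 ± 0.21 (SE), so the lower value was seen at 1 of 2 probes and could not be checked at the other.

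Setd2, whose product makes the trimethyl form of H3K36, had a probe that lay at the edge of background. Its log2 intensity was 7.14 and 6.98 in control cells and 7.04 and 7.33 with NSD2. The NSD2 array of replicate 1 lay between the control arrays, so the groups overlapped. The difference was 0.12 ± 0.21 (SE), with a 95% interval from -0.32 to 0.57. With the background threshold set at the upper 1% point, this probe was above it on 1 array only.

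Setmar encodes a SET-domain protein linked to DNA repair, which in anthropoid primates is fused to a transposase. Its probe stood at 7.16 and 7.18 in control cells and at 6.96 and 7.36 with NSD2, the array at 6.96 being below background. The NSD2 arrays lay on either side of the control arrays. The means of 7.17 ± 0.02 and 7.16 ± 0.28 differed by -0.01 ± 0.21 (SE), far less than the spread of the NSD2 arrays.

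Smyd2 encodes a SET and MYND domain methyltransferase with substrates beyond histones, p53 and HSP90 among them. Its 2 probes, both well above background on all 4 arrays, did not share a direction. The first had a log2 intensity of 9.74 and 8.78 in control cells and 9.37 and 8.90 with NSD2, so that both arrays numbered 1 lay above both arrays numbered 2. The control arrays were the extremes and the NSD2 arrays lay between them. Its means were 9.26 ± 0.68 and 9.13 ± 0.33, a difference of -0.13 ± 0.28 (SE), with the widest interval of the members (-0.71 to 0.46). This difference was -0.61 without control vector 2, 0.35 without control vector 1 and 0.11 without NSD2 2, so its direction changed with the arrays used.

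The second Smyd2 probe was steadier. Its log2 intensity was 8.67 and 8.72 in control cells and 8.84 and 8.75 with NSD2. Both NSD2 arrays lay above both control arrays, by a small margin. The difference was 0.10 ± 0.20 (SE), with a 95% interval from -0.33 to 0.53 (limma adjusted p = 0.9996). It ran from 0.06 to 0.14 when 1 array was left out. Of the 7 member probes above background on all 4 arrays, this one and that of Nsd1 had groups that did not overlap, 2 of 7, beside 30.4% of all such probes.

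**Figure D2:**
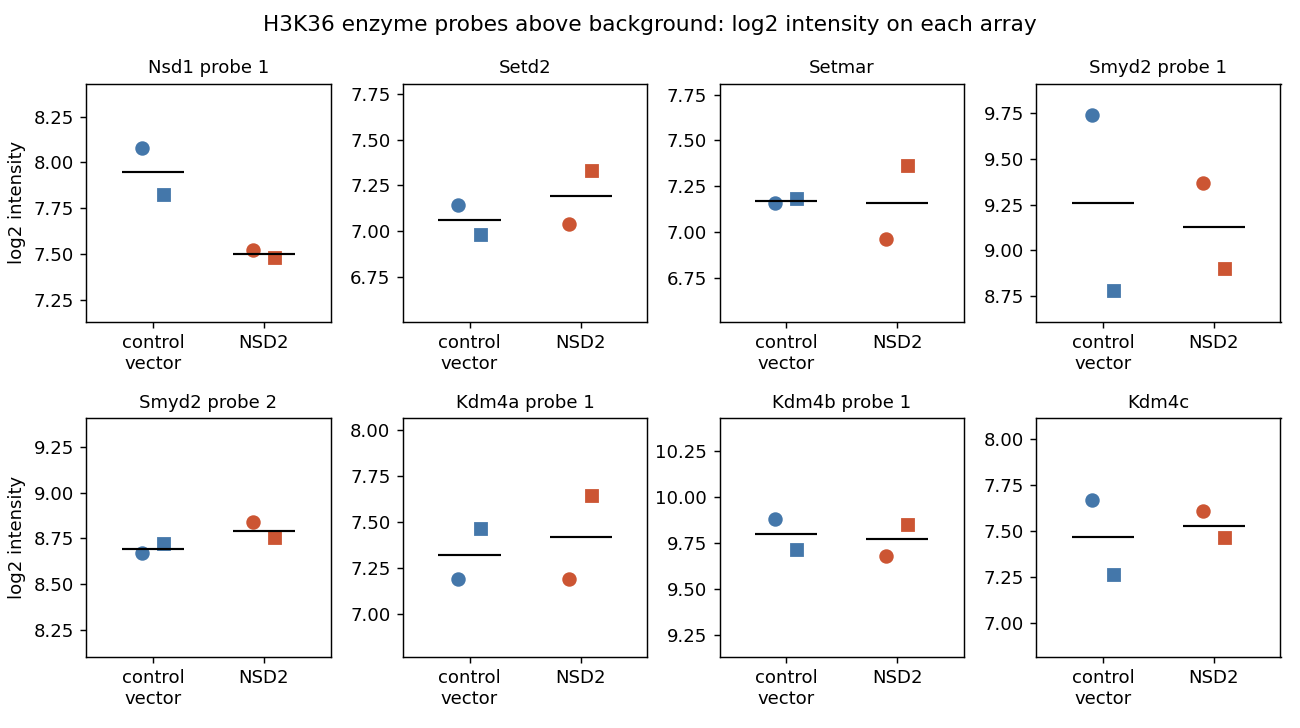
Normalized log2 intensity (vertical axis, the same span in each panel) of the 8 probes above background on 3 or 4 arrays, with circles for replicate 1, squares for replicate 2, and a line at each group's mean (n = 2). The groups are apart for the leading Nsd1 probe (7.95 and 7.50) and narrowly for Smyd2 probe 2 (8.69 and 8.79), and levels of different probes are not comparable.

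The KDM4 demethylases, which carry a Jumonji catalytic domain, were measurable at 1 probe each. Kdm4b was well above background, at 9.88 and 9.71 in control cells and 9.68 and 9.85 with NSD2. The arrays of both groups were interleaved. The difference was -0.03 ± 0.20 (SE), with a 95% interval from -0.46 to 0.41, so changes of over 1.38-fold down or 1.32-fold up lay outside it. Both other Kdm4b probes were above background on no array.

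Kdm4a had a log2 intensity of 7.19 and 7.46 in control cells and 7.19 and 7.64 with NSD2 at its brighter probe. In both groups the array numbered 2 was the higher one, and the groups overlapped. The difference was 0.09 ± 0.22 (SE), with a 95% interval from -0.38 to 0.56. With the stricter threshold this probe was above background on 2 arrays, and the other Kdm4a probe was above it on none under either threshold.

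Kdm4c stood at 7.67 and 7.26 in control cells and at 7.61 and 7.46 with NSD2. Both NSD2 arrays lay between the control arrays. The difference was 0.07 ± 0.21 (SE), with a 95% interval from -0.39 to 0.52. No demethylase probe above background had a difference outside -0.03 to 0.09.

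Kdm2b encodes a demethylase that binds unmethylated CpG through a CXXC zinc finger and is a subunit of a variant Polycomb complex. Its 2 probes, which the annotation ties to different RefSeq transcripts, had signals of 151 to 195 and 157 to 177, below the threshold on every array. The differences of the 6 dim member probes lay between -0.16 and 0.17. At this signal over background a change in their transcripts was not detectable. A Kdm2b probe and a Kdm4b probe were the dim ones without overlap between groups, which brings the count to 4 of 14 probes (28.6%), beside 31.9% of all probes.

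**Figure D3:**
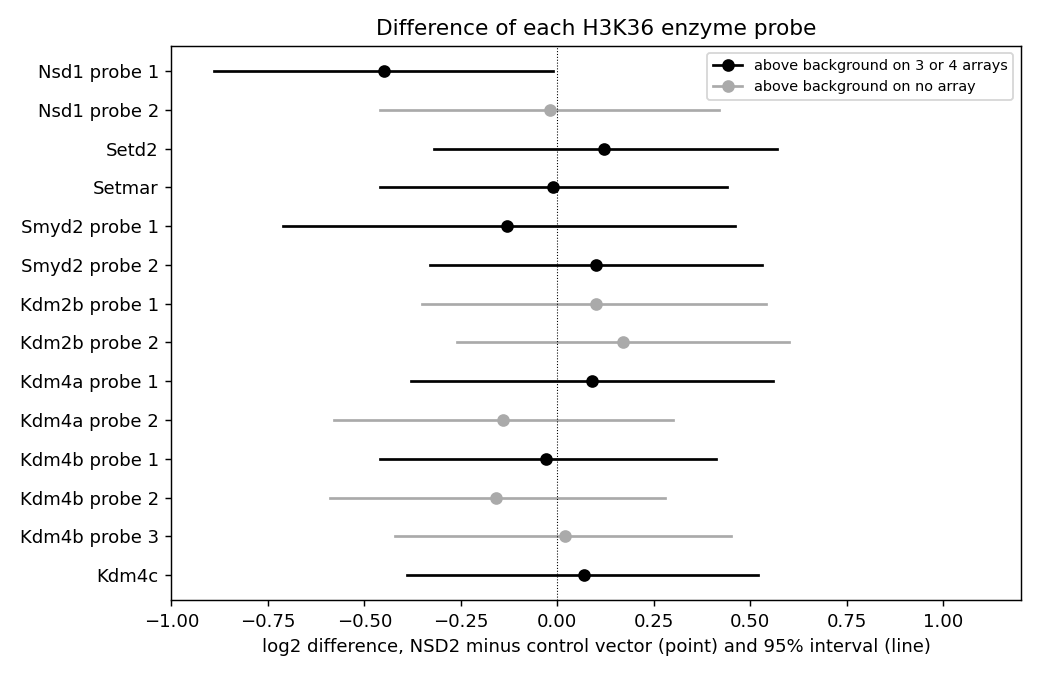
Log2 difference, NSD2 minus control vector, of each of the 14 probes (points) with the 95% interval from limma's moderated spread (lines, horizontal axis in log2 units), black for probes above background on 3 or 4 arrays and grey for probes above it on none. Only the leading Nsd1 probe has an interval that leaves out 0, from -0.89 to -0.01 before adjustment over all probes.

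The intervals show what 2 arrays a group could resolve with limma's moderated spread. This spread borrows from all probes (15.9 degrees of freedom), so no interval, that of Nsd1 included, rests on its own probe's arrays alone. Among the 7 probes above background other than that of Nsd1, none had an interval reaching beyond 1.64-fold lower or 1.48-fold higher. These bounds hold for the offset used, which compresses differences of dim probes, so any folds of Nsd1, Setd2, Setmar, Kdm4a and Kdm4c are understated. The 1.64-fold bound, that of the first Smyd2 probe, depends on the offset too. The SE of this probe was 0.28 here, 0.38 with an offset of 16 and 0.44 with an offset of 1. The intervals of the 7 probes do not show that levels were equal.

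The direction of the Nsd1 difference was the same in 15 of 15 alternatives, with values from -0.59 to -0.32, and in none of them did it pass the test. The second Smyd2 probe likewise kept its sign in 15 of 15. In both probes the groups did not overlap, so leaving out 1 array could not turn the sign. Changing the moderation, filter or replicate term leaves a difference as it is, so those alternatives could not turn it either. Only changed background correction, offset, scaling or starting values could. The other 6 probes above background changed sign in at least 1 alternative.

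**Figure D4:**
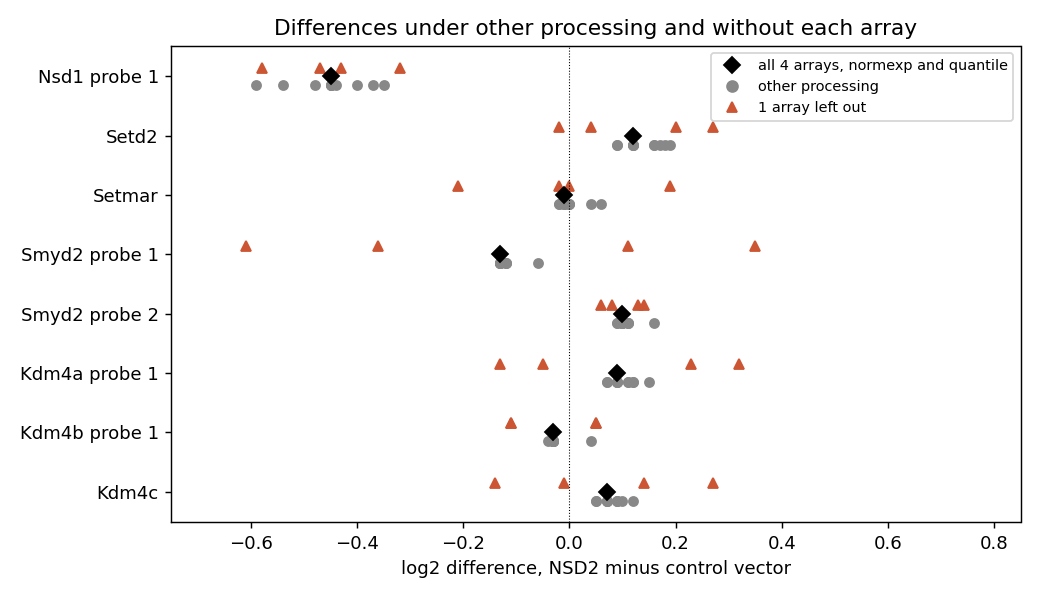
Log2 difference, NSD2 minus control vector (horizontal axis), of the 8 probes above background, with the value from all 4 arrays (diamonds), under other processing (circles) and with 1 array left out (triangles). Nsd1 stays between -0.59 and -0.32, whereas the first Smyd2 probe spans -0.61 to 0.35 when single arrays are left out.

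The wider H3K36 pathway was followed through 4 lists with 79 genes, of which 62 had a probe and 48 were above background on all 4 arrays at the brightest probe. In the fit over all probes 0 of 62 passed (limma), and 1, Setd3, had an unadjusted p under 0.05, beside 3.17% of all 6902 genes so measured. Means were higher with NSD2 in 28 and lower in 20, with a median difference of 0.03, beside 3396 higher and 3506 lower and a median of 0.00 over those 6902 genes. The groups did not overlap in 18 of the 48 genes, beside 30.7% of the 6902.

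Among other enzymes proposed for H3K36, 3 of 6 genes above background on all 4 arrays had higher and 3 lower means. Setd3, better known as the histidine methyltransferase of actin, had the lowest value of the pathway. Its log2 intensity was 9.25 and 9.55 in control cells and 8.72 and 8.97 with NSD2, so both NSD2 arrays lay below both control arrays. The difference was -0.55 ± 0.21 (SE, limma unadjusted p = 0.020, adjusted p = 0.9996), and a second Setd3 probe, above background on no array, differed by -0.28. At the other end stood Riox2, a ribosomal oxygenase gene, with 9.07 and 8.93 in control cells and 9.34 and 9.33 with NSD2 (0.33 ± 0.20, SE).

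Readers, the proteins that bind methylated H3K36, had higher means in 8 of 15 genes and lower in 7, with a median difference of 0.00. Zmynd8, a reader with PWWP and bromodomain modules, had the highest value (0.31 ± 0.21, SE), but a second Zmynd8 probe, also above background on all 4 arrays, differed by -0.11. The PWWP domain gene Pwwp3a had the lowest (-0.23 ± 0.21, SE), with 12.19 on both control arrays and 12.16 and 11.77 with NSD2. The reader and DNA methyltransferase gene Dnmt3b stood at 8.67 ± 0.08 and 8.71 ± 0.06, while Dnmt3a was above background on no array.

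Partners of the mark in transcription had higher means in 12 of 20 genes and lower in 8. Hdac2, a histone deacetylase of the Sin3 complex, differed by -0.40 ± 0.20 (SE), with 13.05 and 13.20 in control cells and 12.66 and 12.80 with NSD2. Hnrnpl, an RNA-binding protein that associates with SETD2, differed by 0.38 ± 0.22 (SE), with 12.60 and 12.16 in control cells and 12.91 and 12.62 with NSD2. In both genes the groups did not overlap, for Hnrnpl narrowly, and neither passed the test (limma adjusted p = 0.9996). Partners of the member enzymes had higher means in 5 of 7 genes, from Chd8, a chromatin remodeller, at -0.09 ± 0.20 (SE) to the chaperone gene Hsp90aa1 at 0.43 ± 0.24 (SE). Hsp90aa1 stood at 8.92 on control vector 1 and at 9.66, 9.81 and 9.64 on the other arrays. The groups thus overlapped, and 1 control array stood apart. A second Hsp90aa1 probe, above background on no array, differed by 0.04.

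**Figure D5:**
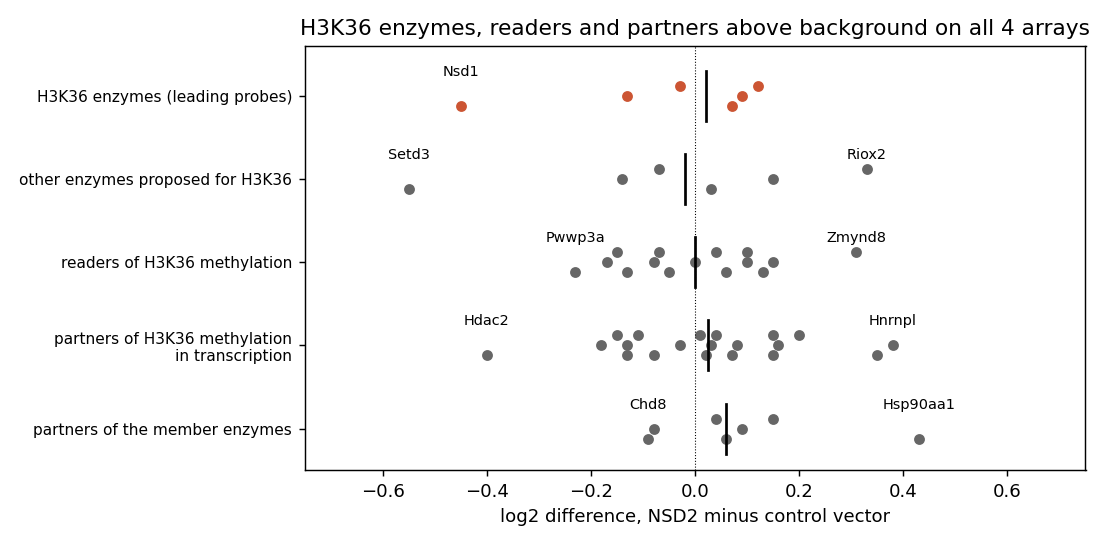
Log2 difference, NSD2 minus control vector (horizontal axis), of each gene above background on all 4 arrays, by its brightest probe, for the H3K36 enzymes (orange) and 4 lists of related genes (grey), with a line at each list's median and names at the extremes. Nsd1 (-0.45) and Setd3 (-0.55) are the lowest of their rows, and the medians lie between -0.02 and 0.06.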

How the data were processed

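RNA of 4 samples was hybridised to Illumina mouse bead arrays after amplification and biotin labelling, per the labels' protocols. The first deposited table holds, per the file headers, the average bead signal of each probe, a linear intensity that is neither normalized nor background-subtracted, with no detection p-values. The second deposited table holds the authors' processed intensity, linear and with values below 0. How it was made is not stated in the sources at hand, and it served as an alternative only. Groups and replicate numbers came from sample titles. The design text speaks of triplicates, and 2 arrays a group were analysed here.

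Signals were corrected with normexp (offset 50), quantile normalized and compared with lmFit and eBayes (limma 3.58.1, R 4.3.3; two-sided, no covariate, all 4 arrays), with Benjamini-Hochberg adjustment over 25697 probes at 0.05. Detection p-values being absent, a probe counted as above background where its signal exceeded the upper 5% point of the lower side of that array's distribution, mirrored about its mode. Of the probes 23978 have 1 gene symbol, 0 several and 1719 are unnamed here. Gene identifiers of 23962 were found in a RefSeq table (GRCm38.p6), used for names only, and 0 symbols changed. The files name no genome build, so no coordinates are given.

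A gene is led by its probe with the highest mean. All 10 members are described, and from each list of related genes those with the highest and lowest difference above background on all 4 arrays. Dnmt3a and Dnmt3b were named after their values were seen. The members and lists were chosen with earlier results of these data known. The fit was tested on simulated data with 200 changed probes, independent noise and no replicate effect. Changes as small as the differences of the members were not simulated, so the simulation does not bear on them. Alternatives changed the background correction, offset, scaling, starting values, moderation, filter and replicate term, and left out each array. Figures were drawn with matplotlib 3.10.9.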

Additional observations from a re-analysis of the deposited data

How the results depend on the processing

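The count of 0 H3K36 enzyme probes changed by NSD2 (limma) was 0 in each of the 15 alternatives, with 0 to 2 probes at an unadjusted p under 0.05 and a lowest adjusted p of 0.51. Of 119 values of single probes, 104 kept their sign, 15 turned it and 0 passed the threshold. Part of these values could not turn, since a changed moderation, filter or replicate term leaves the difference as it is. At most 48 of 25697 probes were called in any alternative. A count of 0 among 14 probes was therefore likely in each, and its repetition does not show stability. Processing turned Setmar, at 0.06 with median scaling, 0.04 with cyclic loess and 0.00 with the authors' processed values. It also turned Kdm4b, at 0.04 with median scaling. Median scaling also put the median difference of probes above background on all 4 arrays at 0.05, against 0.00, about the size of both turns. Leaving out 1 array gave -0.02 to 0.27 for Setd2, -0.21 to 0.19 for Setmar, -0.61 to 0.35 for the first Smyd2 probe, -0.13 to 0.32 for Kdm4a, -0.11 to 0.05 for Kdm4b and -0.14 to 0.27 for Kdm4c. A group left with 1 array has no spread of its own. Without either control array, each of the 8 probes above background had the same SE of 0.29, and with the replicate block 0.19. Those fits thus used a common spread in place of each probe's own, and so do their counts over all probes. The count of 4 over all probes became 0 with an offset of 1 or 16, median scaling, the authors' values, or probes above background on all 4 arrays (limma, 1110, 1105, 327, 932 and 331 probes at an unadjusted p under 0.05), 1 with probes above it on at least 2 arrays, and 13 with robust trended moderation. It was 13 without control vector 1, 15 without control vector 2, and 5 to 15 over all arrays left out. With the replicate block it was 48 over all probes and 0 of the 14 member probes. Deviations of same-numbered arrays from their group means correlated at 0.239 over all probes and at 0.521 over those above background on all 4 arrays, which for 2 pairs does not establish a pairing. With the upper 1% point as background, 5 of the 7 member probes stayed above it on all 4 arrays. Low signal over background limits what can be said of Setd2, Setmar, Kdm2b and Kdm4a. Nsd1 and Kdm4c passed the stricter threshold on all 4 arrays but were dim too. Their signals were 1.22 to 1.59 and 1.16 to 1.41 times the threshold of the main setting.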
